A study of Mus musculus with 25 samples.

Results

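The comparison was between 3 libraries of hematopoietic stem cells (HSCs) obtained after 10 young HSCs had been transplanted and 2 libraries of HSCs from young mice, 5 of the 25 libraries of the series. The members were chosen by the treatment and age labels. All 5 are reduced representation bisulfite sequencing (RRBS) libraries of genomic DNA from C57Bl/6 mouse bone marrow, with the cell type labelled as hematopoietic stem cell, and the young mice are given as 3.5 months old with no treatment. For the transplanted group the labels give only the number and the age class of the cells, and they name neither the recipients, the time after transplantation, the sex nor the markers used to sort the cells. The whole series covers HSCs of fetal, young and old mice and HSCs after transplantation of 10, 50 or 500 young or old cells. It also covers HSCs after 0, 2 or 4 doses of 5-fluorouracil. The old mice are given as 25 months old, and the fetal age is given as an embryonic day. The mice of the 5-fluorouracil groups are given as 3.5 months old with 6 months added. The design text of the series describes it as a study of methylation during ontogeny and after enforced proliferation. Nothing in the labels says that replicates of a group came from separate mice, so the p-values below measure only the spread between these libraries.

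HSCs sit at the top of blood formation and can rebuild the whole blood system of a recipient after transplantation. To do so from few cells, each transplanted cell must divide many times, whereas most HSCs of an undisturbed adult are quiescent. Cytosine methylation at CpG dinucleotides is copied to the new strand by DNMT1 and its partner UHRF1 after each replication, and is set anew by DNMT3A and DNMT3B. CpG-dense promoters are usually unmethylated in mammalian cells, and most CpG-poor sequence is highly methylated. RRBS cuts DNA at CCGG sites and sequences the fragments, so it reads CpG-rich sequence best.

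Shown here are promoters of characterised genes among the largest losses (Gdpd3, Caln1, Rhd) and gains (Nrsn2, Palm3, Rasip1) with measured CpGs in their sequence. All measured CpGs of the window, 1000 bp on each side of the start, lie in the sequence for Caln1 (5) and Rasip1 (3). For Gdpd3 3 of 4 do, for Rhd 4 of 6, for Nrsn2 9 of 12 and for Palm3 7 of 8. The reads are listed at mm9 positions and no mm9 annotation was used here, so each RefSeq promoter (GRCm38.p6, 250 bases before to 50 bases after the start) was placed on mm9 by the spacing of its CpGs against the CpGs listed in the libraries. The Gdpd3 sequence was placed at chr7:133909678-133909977, Caln1 at chr5:130845078-130845377 and Rhd at chr4:134420201-134420500. The Nrsn2 sequence was placed at chr2:152202292-152202591, Palm3 at chr8:86545123-86545422 and Rasip1 at chr7:52882657-52882956. Capitals mark the CpGs measured in all 5 libraries. All sequences are written 5′ to 3′ on the strand of the gene.
Gdpd3, plus strand: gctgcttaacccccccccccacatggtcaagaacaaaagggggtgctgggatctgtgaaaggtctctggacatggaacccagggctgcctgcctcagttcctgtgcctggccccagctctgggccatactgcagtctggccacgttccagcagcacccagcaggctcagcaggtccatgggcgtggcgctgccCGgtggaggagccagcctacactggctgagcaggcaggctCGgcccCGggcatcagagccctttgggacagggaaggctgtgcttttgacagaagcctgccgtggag
Caln1, plus strand: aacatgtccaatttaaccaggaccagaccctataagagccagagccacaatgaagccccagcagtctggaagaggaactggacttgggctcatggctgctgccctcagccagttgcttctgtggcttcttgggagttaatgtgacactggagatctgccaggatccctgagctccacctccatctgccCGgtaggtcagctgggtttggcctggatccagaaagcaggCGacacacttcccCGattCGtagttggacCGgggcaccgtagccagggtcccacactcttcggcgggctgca
Rhd, plus strand: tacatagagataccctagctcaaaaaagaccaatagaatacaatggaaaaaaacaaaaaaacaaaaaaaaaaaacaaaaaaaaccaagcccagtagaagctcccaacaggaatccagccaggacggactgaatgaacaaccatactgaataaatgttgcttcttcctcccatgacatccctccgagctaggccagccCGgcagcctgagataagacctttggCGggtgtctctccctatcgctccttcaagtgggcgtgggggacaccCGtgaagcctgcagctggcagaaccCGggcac
Nrsn2, minus strand: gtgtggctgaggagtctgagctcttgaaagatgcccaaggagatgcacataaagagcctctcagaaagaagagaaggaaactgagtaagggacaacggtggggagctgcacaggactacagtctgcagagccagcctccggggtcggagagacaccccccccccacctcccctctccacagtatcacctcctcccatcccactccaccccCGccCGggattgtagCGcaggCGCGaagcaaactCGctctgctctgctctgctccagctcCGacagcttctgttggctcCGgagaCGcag
Palm3, plus strand: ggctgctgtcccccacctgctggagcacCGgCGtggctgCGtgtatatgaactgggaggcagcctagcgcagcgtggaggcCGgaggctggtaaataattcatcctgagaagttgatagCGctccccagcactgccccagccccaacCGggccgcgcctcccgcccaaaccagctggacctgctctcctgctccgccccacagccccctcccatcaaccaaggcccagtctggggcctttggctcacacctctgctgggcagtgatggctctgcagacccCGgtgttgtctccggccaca
Rasip1, plus strand: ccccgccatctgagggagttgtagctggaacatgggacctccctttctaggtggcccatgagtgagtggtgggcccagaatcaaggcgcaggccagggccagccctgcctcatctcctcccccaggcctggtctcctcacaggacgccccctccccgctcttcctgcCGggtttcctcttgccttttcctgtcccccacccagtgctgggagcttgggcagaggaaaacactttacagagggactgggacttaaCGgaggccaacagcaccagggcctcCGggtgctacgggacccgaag
These sequences contain few CpGs for promoters. The 300-base sequences of all 9279 promoter windows tested held a median of 24 CpGs, against 7 for Gdpd3, 8 for Caln1, 8 for Rhd, 12 for Nrsn2, 14 for Palm3 and 9 for Rasip1. Within the printed Caln1 sequence the 5 measured CpGs were methylated at 24.7%, 29.4% and 34.5% in the transplanted libraries and at 69.4% and 69.3% in the young libraries. Within the printed Nrsn2 sequence the 9 measured CpGs were methylated at 56.5%, 58.3% and 51.4% after transplantation and at 21.1% and 18.7% in young HSCs.

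The transplanted libraries held 47998340, 44427841 and 48054848 reads at CpGs (replicates 1, 2 and 3), and the young libraries 88351506 and 105187091 (replicates 1 and 2). A total of 1101174 autosomal CpGs had 5 or more reads in all 5 libraries. They were grouped into tiles, fixed windows of 1000 bp with 3 or more such CpGs, and 102886 tiles were obtained with a median of 211 reads. The level of a tile is the share of its reads that were methylated, in percent, and differences between groups are differences of group means in percentage points. No library pair held identical counts.

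Methylation was lower after transplantation across much of the methylated genome. The mean tile level was 55.1%, 56.7% and 54.9% in the 3 transplanted libraries and 60.7% and 62.2% in the 2 young libraries. The groups did not overlap, with 55.6% ± 1.02 (SD, n = 3) against 61.5% ± 1.07 (SD, n = 2), a difference of -5.89 points. An exact two-sided permutation test gave p = 0.1, the smallest value that the 10 possible splits of 3 and 2 libraries allow (adjusted p = 0.1125 over 9 measures of the libraries), so this design cannot reach 0.05 for a single value. The median tile level was 71.1%, 74.5% and 71.3% after transplantation against 82.5% and 85.1% in young HSCs. The replicate with the smallest difference from young HSCs was the second. Leaving out any 1 of the 5 libraries gave a difference in mean level between -6.72 and -5.15 points.

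The difference lay in the highly methylated CpGs. CpGs at 80% or more made up 26.4%, 29.5% and 27.0% of the measured CpGs after transplantation, and 37.3% and 39.1% in young HSCs. CpGs between 20% and 80% made up 24.0%, 21.3% and 23.0% after transplantation, against 12.8% and 11.03%. Thus intermediate levels were more common in all 3 transplanted libraries than in both young libraries. By contrast, CpGs under 20% made up 49.6%, 49.2% and 49.9% against 49.9% and 49.8%, and the groups overlapped (exact permutation p = 0.5, n = 3 and n = 2).

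The young libraries were read more deeply than the transplanted ones, and the share of CpGs in each class of level depends on depth. The shares were therefore compared again at 656460 CpGs with 20 or more reads in all 5 libraries, each thinned to 20 reads. Intermediate CpGs then made up 18.3%, 15.5% and 16.9% after transplantation against 9.23% and 8.30%, where the unthinned shares at the same CpGs were 19.7%, 16.5% and 18.03% against 9.20% and 8.32%. CpGs with every one of the 20 reads methylated made up 3.99%, 2.71% and 3.20% after transplantation and 6.77% and 9.18% in young HSCs. The groups remained apart on both measures at equal depth.

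**Figure D1:**
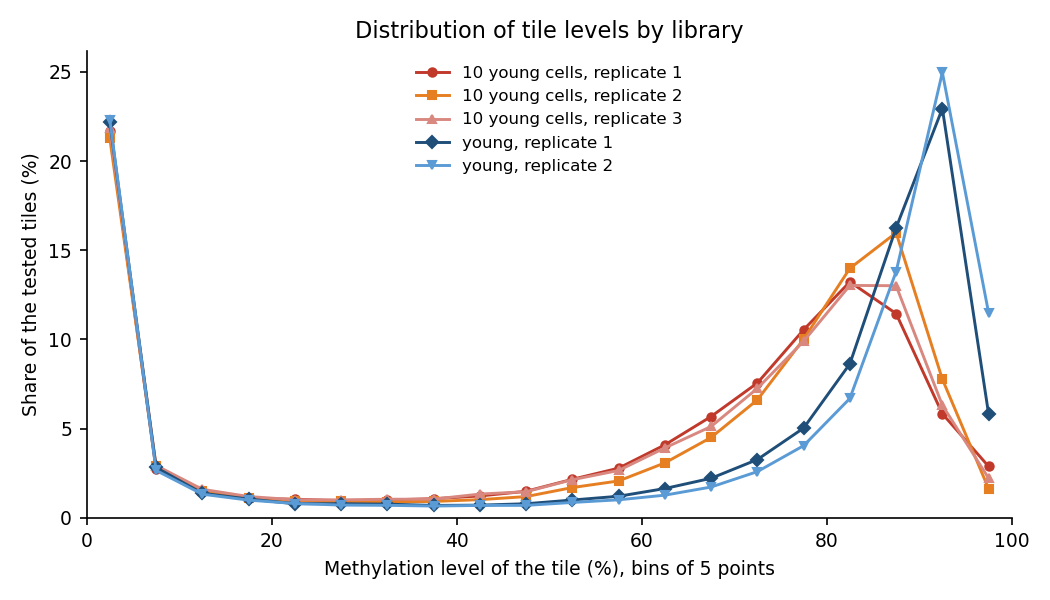
Share of the 102886 tiles (%, vertical axis) in each bin of 5 points of tile methylation level (%, horizontal axis), with 1 line per library. The peak of unmethylated tiles is at the same place in all 5 libraries, and the peak of methylated tiles lies lower and is broader in the 3 libraries from 10 young cells, whose median tile levels are 71.1%, 74.5% and 71.3%, than in the 2 young libraries at 82.5% and 85.1%.

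Tile by tile, loss was far more common than gain. In 24831 of 102886 tiles (24.1%) all 3 transplanted libraries lay below both young libraries with means 10 or more points apart, and these are called lower tiles below. The opposite held in 1767 tiles (1.72%), called higher tiles. Of the tiles that were this far apart without overlap, 93.4% were lower. The median difference was -14.8 points in the lower tiles, 14.9 points in the higher tiles and -5 points over all tiles. These 2 classes describe the libraries and are not the outcome of a test.

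Without the requirement of 10 points, all 3 transplanted libraries lay below both young ones in 53.3% of tiles and above both in 5.48%. The excess was also present in tiles of low level: in the 26595 tiles under 20% in fetal HSCs the median level was 0.566%, 0.828% and 0.773% after transplantation and 1.52% and 1.36% in young HSCs. This difference between medians, under 1 point, was present beside the larger one in methylated tiles, and its source was not tested.

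Individual tiles passed a test only rarely. A quasi-binomial logistic model of methylated and total reads in each tile, with its dispersion moderated across tiles in limma, called 28 of 102886 tiles (0.0272%) changed at an adjusted p under 0.05 and a difference of 10 points or more. Of these, 18 fell (0.0175%) and 10 rose (0.00972%). The unadjusted p was under 0.05 in 29608 tiles (28.8%), and the smallest adjusted p was 0.0392. The number of calls depended strongly on 1 quantity estimated from the tiles, the correlation of reads within a library: it was 0 with the correlation taken from tiles of intermediate level and 9412 with its median form, both added after the data were seen. Without transplanted replicate 1 the count was 4208, and without any other single library it was 0, so the classes of lower and higher tiles are used for the description by locus and the calls are used for named loci.

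The tiles with the largest falls were CpG-poor and mostly far from a placed gene start. The tile at chr8:96959001-96960000 was methylated at 15.6%, 26.9% and 26.7% after transplantation and at 84.1% and 86.6% in young HSCs, a fall by 62.3 points (adjusted p = 0.0392 in the quasi-binomial fit). At chr4:86358001-86359000 the transplanted libraries were at 8.63%, 6.77% and 9.09% and the young ones at 68.7% and 66.5%. The levels of this second tile were also low in untreated old HSCs, with a mean of 29.2%, and high in fetal HSCs, at 91.8%.

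Other called falls lay nearer to genes. A tile 4071 bp from the placed start of Ube2c, a ubiquitin-conjugating enzyme of mitotic exit, was at 32.1%, 39.3% and 35.7% against 84.3% and 87.1%. A tile 8014 bp from the start of Kctd10, at chr5:114822001-114823000, was at 16.3%, 28.2% and 12.3% against 72.8% and 81.5%. A tile 19702 bp from the start of Stat5a, a transcription factor of cytokine signalling in blood cells, was at 41.1%, 44.4% and 34.4% against 86.6% and 85.9%. The 10 falls named by size ran from -62.3 to -46.3 points, and none was within 1 kb of a placed start.

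Among the rises, the tile 3575 bp from the start of Cbfa2t3, which encodes a corepressor that acts in HSCs, was methylated at 84.6%, 67.6% and 79.5% after transplantation and at 23.0% and 19.6% in young HSCs (a rise of 55.9 points, adjusted p = 0.0392 in the quasi-binomial fit). It lies at chr8:125198001-125199000 and has 7 measured CpGs with 216 to 473 reads per library. Outside the comparison the means were 75.8% after transplantation of 10 old cells, 48.3% in mice given 0 doses of 5-fluorouracil and kept 6 more months, 65.3% in fetal HSCs and 16.7% in untreated old HSCs, so untreated young and old HSCs had the lowest levels of these groups. The HSCs from 50 young cells stood at 79.2% and those from 500 young cells at 52.9%, each from 1 library.

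A second rise lay beside Trim47, a gene of the TRIM family of ubiquitin ligases. The tile 2049 bp from its start was at 64.9%, 69.7% and 78.9% against 18.6% and 14.48%. It belonged to 4 neighbouring higher tiles at chr11:115967001-115971000, which had 30 CpGs and a median difference of 20.3 points. The 10 called rises ran from 40.5 to 69.4 points. A CpG-denser example at chr8:107792001-107793000, with 14 CpGs, was at 56.3%, 55.4% and 55.1% against 10.8% and 9.96%, with 57.8% after 10 old cells, 10.7% in old and 2.31% in fetal HSCs. Runs of 3 or more neighbouring higher tiles like that at Trim47 were found at 10 places, and runs of lower tiles at 80 places, the longest of 5 tiles.

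The higher run with the largest difference had no placed gene start within 50 kb. At chr8:87308001-87311000, 3 higher tiles with 41 CpGs differed by a median of 41.7 points. Its first tile, with 30 CpGs and 644 to 2627 reads per library, was at 72.1%, 62.1% and 60.3% after transplantation and at 17.5% and 18.3% in young HSCs. The same tile stood at 2.66% in fetal, 22.8% in old and 21.5% in undosed older HSCs, and at 65.1% after transplantation of 10 old cells. The single libraries from 50 young, 500 young and 50 old cells were at 65.0%, 41.2% and 64.8%, and the mean after 500 old cells was 58.0%. After 2 doses of 5-fluorouracil the mean was 37.3%, and the libraries with 4 doses were at 22.4% and 52.9%. The tile was thus higher after transplantation of any of these cell numbers, from donors of either age, than in the untreated groups.

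Higher runs at genes included Runx3, a transcription factor of T cells and other lymphocytes, with 3 tiles at chr4:134710001-134713000 and a median difference of 16.6 points. The run beside Rbmxl2, a testis-expressed RNA-binding protein gene, spanned 116 CpGs at chr7:114352001-114355000 and differed by 17.8 points. No tile of either run was called by the model. The rise with the largest difference, 69.4 points at chr15:49801001-49802000, had 48 to 8314 reads per library, and the unweighted mean of its CpGs differed by 42.1 points. The tile was no longer tested once CpGs with over 500 reads were left out. At that tile the young libraries were at 8.94% and 11.3%, while the means were 88.4% in fetal, 97.0% in old and 89.5% in undosed older HSCs.

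**Figure D2:**
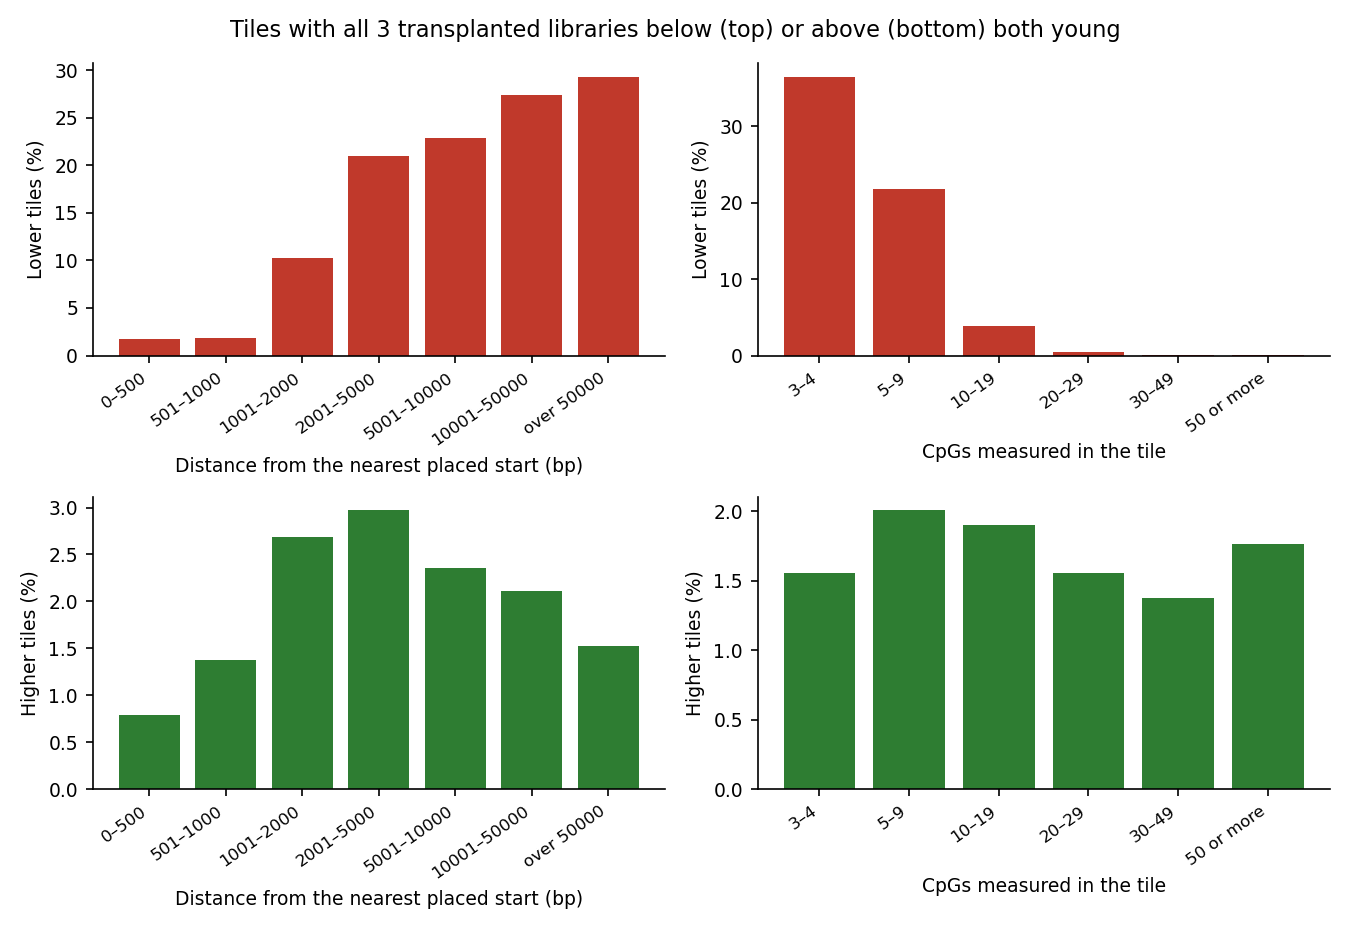
Share of tiles that were lower (top row) or higher (bottom row) by 10 points or more without overlap between the groups (%, vertical axes), by distance from the nearest placed gene start (bp, left) and by the number of CpGs measured in the tile (right). The share of lower tiles runs from 1.71% within 500 bp of a start to 29.3% beyond 50 kb and from 36.4% at 3 to 4 CpGs to 0.0477% at 50 or more, whereas the share of higher tiles stays between 0.787% and 2.97%.

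Loss after transplantation followed CpG density and distance from gene starts. Of the 49723 tiles with 3 or 4 CpGs, 36.4% were lower. The share was 21.7% at 5 to 9 CpGs, 3.86% at 10 to 19 CpGs and 0.469% at 20 to 29 CpGs. Among the 2095 tiles with 50 or more CpGs, 1 was lower. Within 500 bp of a placed start 1.71% of tiles were lower, and beyond 50 kb 29.3% were.

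Distance and density were not independent of the starting level, since most CpG-dense tiles are unmethylated and cannot lose. The median young level was 1.16% in tiles with 50 or more CpGs and 87.6% in tiles with 3 or 4. The tiles were therefore also divided by their level in fetal HSCs, which the comparison did not use. Of the tiles at 80% or more in fetal HSCs 33.1% were lower, of those between 20% and 80% 29.4% were, and of those under 20% 0.256% were. Higher tiles made up 0.568%, 5.37% and 1.96% of these 3 classes.

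Gain had another distribution. Of the higher tiles 7.36% lay within 1 kb of a placed start, against 0.930% of the lower tiles and 12.9% of all tiles tested. Their share was 2.97% between 2 and 5 kb from a start and 0.787% within 500 bp. Tiles with 20 or more CpGs were 10.3% of the higher tiles, 0.125% of the lower tiles and 11.6% of all tiles. With 30 or more CpGs, 73 of 1953 tiles over 10 kb from a start were higher (3.74%), and 18 of 4052 tiles within 1 kb (0.444%). Without the 2 stretches on chromosomes 12 and 4 described below the shares were 1.79% and 0.173%. The difference between them was not tested.

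The loss was spread over all 19 autosomes, with 21.9% to 25.3% of tiles lower on each. Of the 2417 megabases with a tested tile, 11 held no lower tile and 1470 held no higher tile. The share of higher tiles was 1.11% on chromosome 1 and 3.02% on chromosome 12, the lowest and the highest of the chromosomes.

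The chromosome 12 value came from a stretch between 17 and 25 Mb, and a like stretch lay at chr4:145054001-146651000. Both were singled out after their counts had been seen. On chromosome 12, 51 of 75 such dense tiles (68%, 20 or more CpGs) were higher and 0 were lower, where 1.01% of such tiles outside both stretches were higher. The mean level of these 51 tiles was 35.9%, 34.5% and 34.1% after transplantation and 20.6% and 20.1% in young HSCs. On chromosome 4, 12 of 25 such tiles were higher, with means of 38.9%, 37.4% and 35.5% against 22.9% and 22.9%.

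At the 51 tiles of chromosome 12 the fetal libraries were at 16.2% and 15.1%, the old ones at 33.1% and 35.6%, and those with 0 doses of 5-fluorouracil at 22.8%, 28.5% and 22.5%. The library from 50 young cells was at 36.5% and that from 500 young cells at 29.5%. The young libraries lay above the fetal ones and below all others, at tiles that were chosen for lying lower in the young libraries than in those from 10 young cells. The tiles had a median of 1820 reads per library against 1805 over all tiles with 20 or more CpGs. Spaced at a median of 126.5 kb, they may be copies of 1 repeated unit, and since the handling of reads that match several places is nowhere stated in the labels or files, the levels belong to the listed positions with that uncertainty.

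**Figure D3:**
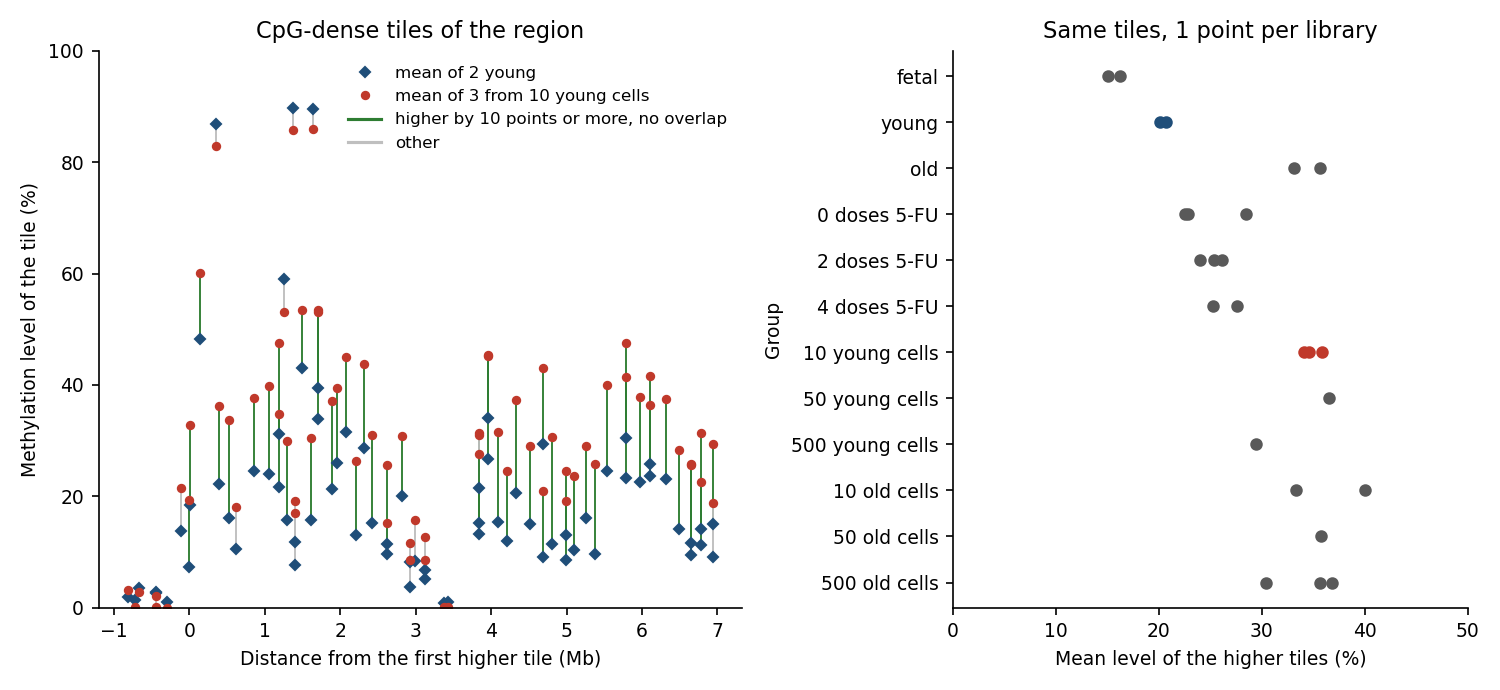
CpG-dense tiles of chromosome 12 between 17 and 25 Mb: left, mean level (%) of the 2 young libraries (blue) and the 3 libraries from 10 young cells (red) by distance from the first higher tile (Mb), and right, the mean level of the 51 higher tiles (%) with 1 point per library for all 12 groups of the series. The green lines mark the 51 higher tiles, and the red points on the right (34.1% to 35.9%) lie above the blue ones (20.1% and 20.6%) and beside those of untreated old HSCs (33.1% and 35.6%).

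At the lower tiles the libraries that had no part in choosing them also differed by treatment. Their median level was 88.4% and 90.5% in the young libraries and 71.2%, 75.7% and 72.5% in the transplanted ones, both used in the choice. It was 79.5% after 50 and 83.3% after 500 young cells, 1 library each. Untreated old HSCs were at 91.3% and 91.2%, and HSCs from 10 old cells at 75% and 76.0%. Fetal HSCs were at 88.5% and 88.7%.

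The 3 libraries from 500 old cells were at 79.0%, 80% and 82.3%, and those with 0 doses of 5-fluorouracil at 89.6%, 85.1% and 86.7%. By these medians all libraries after transplantation were below all others, the nearest being 500 young cells at 83.3% and 1 library with 2 doses of 5-fluorouracil at 84.1%. Outside the comparison each median covers only the tiles measured in that library, so the sets of tiles differ. They held 22591 tiles for 500 young cells, 23702 for that library with 2 doses and 15037 for 1 library with 4 doses. The small gap between the nearest libraries was not tested on shared tiles. The higher tiles had a different order. Their median level was 28.4% and 29.1% in young HSCs, 36.7% and 36.4% in fetal, 46.5% and 43.5% in old, 44.4%, 47.2% and 44.6% in undosed older and 50.9%, 48.8% and 45.9% in transplanted HSCs. The young libraries stood apart as the lowest at tiles that were chosen partly for being low in them.

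The 3 transplanted libraries differed among themselves more than the 2 young ones. The root mean square SD of tile levels was 6.48 points among the transplanted libraries (n = 3) and 3.89 points among the young (n = 2), with the shallower reads of the transplanted libraries included in the first value. Of 99066 tiles with 30 or more reads in each library, replicate 1 lay over 30 points below both other transplanted libraries in 217 and above both in 106. Replicate 3 lay below in 158 and above in 12, and replicate 2 below in 12 and above in 38. A tile near Dnpep, an aspartyl aminopeptidase gene, was at 35.2%, 94.8% and 88.0% after transplantation and at 93.0% and 96.3% in young HSCs, so that 1 transplanted library alone was low. Near Crtc1, a coactivator of CREB, the third library was at 45.1% while the first was at 100% and the second at 88.9%.

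Promoter windows, from 1000 bp before to 1000 bp after a placed start, were tested with the same model and had a median of 1829 reads. The model called 111 of 9279 windows (1.20%) changed, of which 60 fell (0.647%) and 51 rose (0.55%), with 3165 at an unadjusted p under 0.05. Over all windows the median difference was -0.62 points. All 3 transplanted libraries lay below both young ones in 58.4% of windows and above both in 6.85%. With means 10 points or more apart as well, 181 windows (1.95%) were lower and 85 (0.916%) higher. With 1 young library left out the model called 0 windows, with 872 and 1148 at an unadjusted p under 0.05 in quasi-binomial fits that assume the lone young library varies like the others. limma on mean CpG levels called 102 windows, 70 of them among the 111.

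The promoters that changed were not typical ones. The 60 that fell held a median of 7 CpGs in their 300 bases and stood at a median of 85.9% in young HSCs and 68.4% after transplantation. The 51 that rose held a median of 16 CpGs and stood at 19.3% and 37.7%. All windows tested held a median of 24 CpGs and stood at 1.31% in young HSCs. The typical promoter was thus CpG-rich and unmethylated in both groups. Falls were called at CpG-poor methylated promoters and rises at promoters with a partial level already present in young HSCs. A window at the median young level of 1.31% cannot fall by the difference that a call requires. Falls could therefore be called only at promoters with enough methylation in young HSCs to lose. Whether the promoters that fell had fewer CpGs than other methylated promoters was not tested.

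The largest fall among promoters was at Gdpd3, a gene of the glycerophosphodiester phosphodiesterase family. Its window was methylated at 34.9%, 54.8% and 34.8% after transplantation and at 81.4% and 86.7% in young HSCs (-42.5 points, adjusted p = 0.0142 in the quasi-binomial fit, 4 CpGs). Caln1, which encodes a calcium-binding protein of neurons, was at 24.7%, 29.4% and 34.5% against 69.4% and 69.3% (-39.8 points, adjusted p = 0.00371). The Caln1 window was also low after 10 old cells, with a mean of 29.01%, where untreated old HSCs had 56.3% and fetal HSCs 74.5%.

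Rhd, the Rh blood group antigen gene of red cells, was at 44.0%, 53.1% and 35.3% against 69.1% and 87.2%. It fell by 34.0 points (adjusted p = 0.0378 in the quasi-binomial fit), and its young libraries differed by more than those of the other promoters named here. Ccnd3, which encodes cyclin D3, a regulator of entry into the cell cycle, was at 34.3%, 37.8% and 38.9% against 67.0% and 63.9% (-28.5 points, adjusted p = 0.0117). The Ccnd3 value comes from 3 CpGs that lie before the start, outside the 300 bases of the promoter sequence. The Ccnd3 window was at 63.3% after 50 young cells, near the young level, and at 53.4% after 500, each from 1 library. Its means were 48.8% after 10 old cells, 77.9% in untreated old HSCs, 64.6% in undosed older HSCs and 58.5% after 2 doses of 5-fluorouracil. The other falls among the 8 largest were at 4930522O17Rik, Gm52825, Gm32709 and Gm39572, with differences from -37.4 to -27.9 points.

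Among promoters that rose, Nrsn2 had the smallest adjusted p. This gene, which encodes a vesicle membrane protein of neurons, was at 51.6%, 56.4% and 49.5% after transplantation and at 20.6% and 18.3% in young HSCs over 12 CpGs (33.0 points, adjusted p = 0.000939 in the quasi-binomial fit). The Nrsn2 window was at 58.2% after 50 and 38.9% after 500 young cells, at a mean of 51.9% after 10 old cells, and at 39.0% in untreated old, 21.3% in undosed older and 4.28% in fetal HSCs.

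Palm3, of the paralemmin family of membrane-associated proteins, was at 40.5%, 48.3% and 62.5% against 18.4% and 20.9%. Rasip1, a Ras-interacting protein that endothelial cells need to form vessel lumens, was at 47.2%, 51.4% and 52.6% against 22.1% in both young libraries. They rose by 30.8 and 28.3 points (adjusted p = 0.0143 and 0.0117 in the quasi-binomial fit). The third Palm3 library was the highest, and the 3 Rasip1 libraries were within 6 points of each other. The other large rises were at predicted genes: Gm39468, Gm36199, Gm31228, Gm42008 and Gm52524, from 26.0 to 40.4 points.

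**Figure D4:**
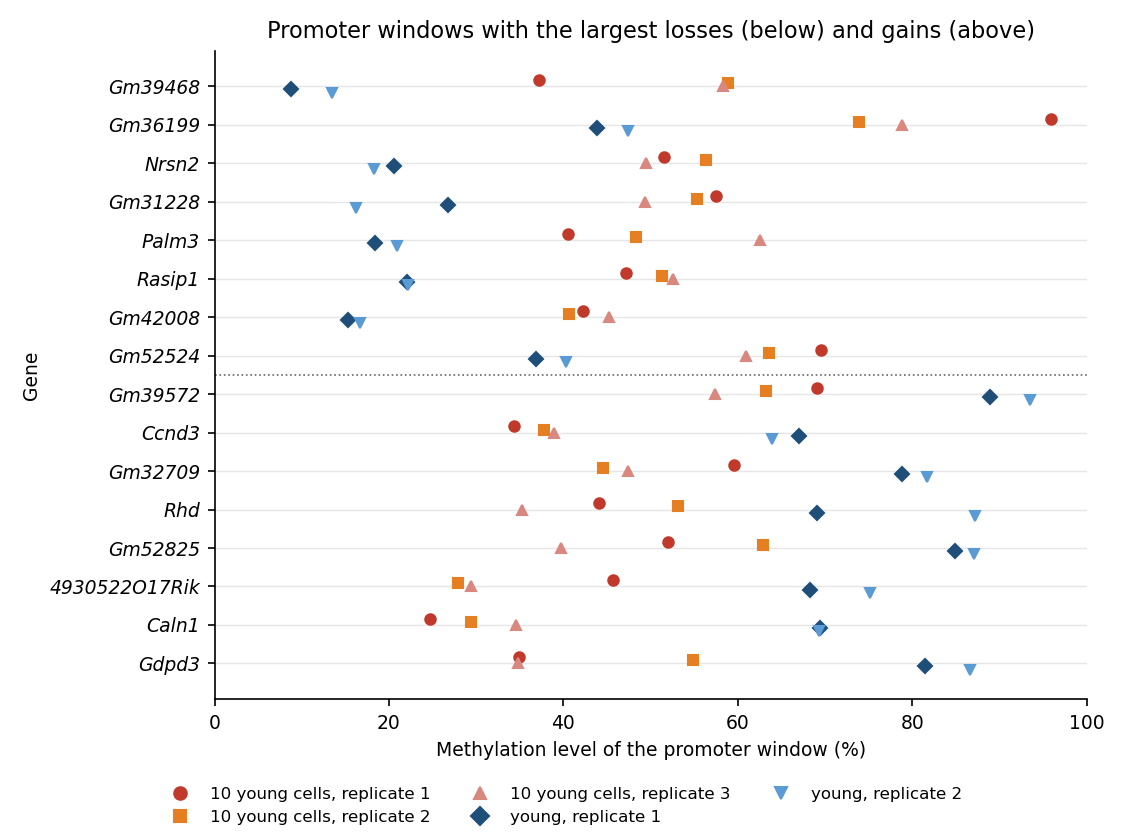
Methylation level of the promoter window (%, horizontal axis) in each of the 5 libraries for the 8 largest losses (below the dotted line) and the 8 largest gains (above it) among promoter windows that passed the test. Red and orange symbols are the 3 libraries from 10 young cells and blue symbols the 2 young libraries, and in each row the 2 groups are separated.

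Hox genes set position along the body axis, and several act in HSCs. Of their 13 promoter windows 2 rose, those of Hoxa5 and Hoxa6, where 0.55% of all windows rose. With 13 windows the count cannot be set against that share. Hoxa5 was at 48.0%, 51.0% and 37.5% after transplantation and at 19.8% and 25.2% in young HSCs over 57 CpGs (23.0 points, adjusted p = 0.0117 in the quasi-binomial fit). Hoxa6 was at 19.9%, 23.1% and 20.5% against 11.5% and 9.15% (10.8 points, adjusted p = 0.0140). At both windows the groups did not overlap, but at the 12 CpGs measured within the 300 bases of the Hoxa6 promoter sequence they did, with 2.56%, 2.67% and 0.399% against 7.12% and 0.508%, so the Hoxa6 difference lies outside those bases. None of the 13 Hox promoter windows tested fell, and limma called 1 of the 13 changed.

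Within 10 kb of placed Hox starts 5 of 58 tiles (8.62%) were higher and 0 lower, where over all placed genes 1.72% of 24058 such tiles were higher and 9.72% lower. Hoxa5 and Hoxa6 share part of these tiles. Hoxa11 and Hoxb1 had 1 higher tile each, at 13.0 and 25.1 points. At the Hoxa5 window fetal HSCs had 6.45%, untreated old HSCs 28.2%, undosed older HSCs 51.4% and HSCs from 10 old cells 55.0%, and the library from 500 young cells had 27.2%. The mean of the undosed older mice was above each of the 3 libraries from 10 young cells.

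**Figure D5:**
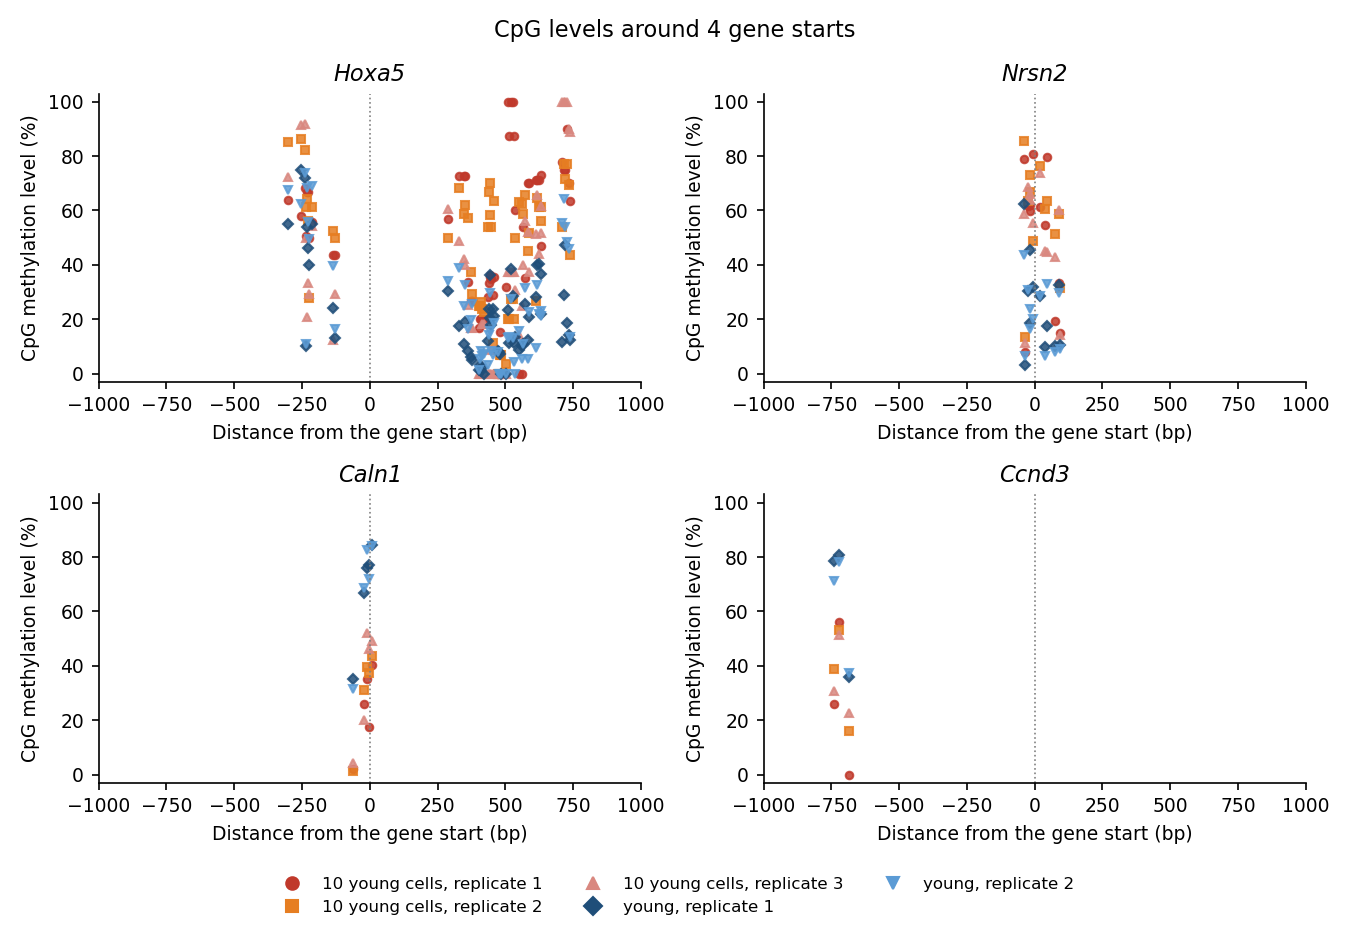
Methylation level (%, vertical axis) of each measured CpG by its distance from the gene start (bp, horizontal axis) at Hoxa5, Nrsn2, Caln1 and Ccnd3, with 1 symbol per CpG and library, red and orange for the 3 libraries from 10 young cells and blue for the 2 young libraries. Over the window the levels are 49.5% to 56.4% against 18.3% and 20.6% at Nrsn2 and 24.7% to 34.5% against 69.3% and 69.4% at Caln1, and the 3 measured Ccnd3 CpGs lie in a single group before the start.

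Genes of the germline, whose promoters are commonly methylated in somatic cells, moved in both directions. Ddx4, an RNA helicase of germ cells, was at 88.6%, 91.6% and 88.2% against 79.9% and 78.7%, a rise of 10.2 points (adjusted p = 0.0336 in the quasi-binomial fit). Tdrd1, a Tudor-domain protein of the piRNA pathway, was at 69.4%, 78.1% and 75.7% against 58.0% and 61.0% and rose by 14.9 points (adjusted p = 0.0316). Tex101, a surface protein of germ cells, fell by 10.2 points (adjusted p = 0.0418), from 94.6% and 97.0% to 87.6%, 83.2% and 86.1%.

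In all, 2 of the 13 germline windows rose and 1 fell, where 0.55% and 0.647% of all windows did. The 13 windows are too few to set these counts against those shares. The 1 germline window that limma called was not that of Ddx4, Tdrd1 or Tex101. The Pou5f1 window, of the pluripotency factor OCT4, was at 40.2%, 45.4% and 47.6% against 27.5% and 16.98% and missed the test (22.2 points, adjusted p = 0.0596 in the quasi-binomial fit). Sycp1, of the synaptonemal complex, differed by -12.9 points and Asz1 by -10.8 points, and neither passed the quasi-binomial test. In the last, replicate 3 was at 93.0%, near the young libraries at 94.3% and 96.6%.

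Imprinted genes, which are methylated on 1 parental allele at their control regions, had no called promoter window. Of 14 promoter windows the quasi-binomial model called 0 and limma 0, and 4 had an unadjusted p under 0.05. Over all windows 1.20% were called and 34.1% had an unadjusted p under 0.05. The 14 windows are too few to set their count against the share called. The Meg3 window was at 48.2%, 50.9% and 46.15% after transplantation and at 36.0% and 31.9% in young HSCs (adjusted p = 0.0769 in the quasi-binomial fit). The Nnat window was at 51.2%, 46.7% and 49.7% against 39.8% and 35.2% (adjusted p = 0.0596). Within 10 kb of placed imprinted starts 5 of 47 tiles were higher and 1 was lower, where near all placed genes 1.72% were higher and 9.72% lower. The median difference of the 47 tiles was 1.26 points, where it was -0.75 points over tiles near all placed genes. Igf2 had 2 of the higher tiles, the largest at 22.4 points.

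Stem cell transcription factors had 0 of 18 windows called by either model (7 at an unadjusted p under 0.05). Of all windows 1.20% were called and 34.1% had an unadjusted p under 0.05. A list of 18 windows is too short to set its count against the share called. Of the 90 tiles within 10 kb of the starts of these factors 5 were higher and 4 lower, where near all placed genes 1.72% were higher and 9.72% lower. Cbfa2t3 held 2 of the higher tiles, including the called one described above. Gfi1, a repressor that restrains HSC proliferation, had 1 higher tile at 19.2 points, and Hlf 1 at 14.2 points. Gata2, a factor required by HSCs, had 1 lower tile at -39.5 points. Among surface genes of HSCs, Itga2b and Cd9 had 2 and 1 lower tiles, and 0 of 29 tiles were higher.

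Genes of the myeloid, lymphoid, erythroid and platelet lineages had 0 called tiles, and 0 windows were called by either model. An unadjusted p under 0.05 was found at 4 of 9, 3 of 12, 3 of 6 and 1 of 2 windows, where 34.1% of all windows had one. Myeloid genes had 5 lower and 2 higher tiles of 38, with 2 lower tiles at Irf8, a factor of monocyte and dendritic cell development, and 1 at Cebpb. Lymphoid genes had 2 lower and 4 higher tiles of 67, and 3 of the 4 higher ones were at Runx3, the largest at 34.5 points. Erythroid genes had 2 lower tiles of 30, both at Zfpm1, the GATA1 cofactor FOG1. Lower tiles were thus 13.2%, 2.99% and 6.67% of the myeloid, lymphoid and erythroid tiles, where they were 9.72% near all placed genes. Higher tiles were 5.26% of the myeloid and 5.97% of the lymphoid tiles, where they were 1.72% near all placed genes. These tile shares were not tested. The lineage lists held 2 to 12 windows each, too few to set their counts of called windows against the 1.20% of all windows called.

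Of the genes linked to the writing, reading and removal of DNA methylation, 0 of 19 windows were called by either model (7 at an unadjusted p under 0.05). Of all windows 1.20% were called and 34.1% had an unadjusted p under 0.05. With 19 windows the count cannot be set against the share called. Of the 51 tiles near these genes 6 were lower and 2 higher, where near all placed genes 9.72% were lower and 1.72% higher. Idh2 and Gadd45a had 1 lower tile each, at -22.8 points in both, Dnmt1 had 1 at -10.6 points and Uhrf1 had 2, the larger at -15.0 points. Tet3, a dioxygenase that oxidises methylcytosine, had 1 higher tile at 21.2 points and Tet1 had 1 at 13.1 points. Polycomb and histone methyltransferase genes had 4 lower and 0 higher tiles of 75 (5.33% lower). Developmental homeobox and T-box genes, which are Polycomb targets in many cells, had 2 lower and 4 higher tiles of 247, the largest at Gbx2 with 25.4 points.

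Among cyclins and cell cycle inhibitors, the Ccnd3 window was the 1 of 15 called, where 1.20% of all windows were. A list of 15 windows is too short to set its count against that share. Cdkn2a, which encodes the inhibitors p16 and p19Arf, had 1 higher tile at 20.4 points, and Cdkn2c, which encodes the inhibitor p18, had 1 at 24.3 points. Cdkn2d, Rbl2 and E2f1 had 1 lower tile each, at -17.7, -20.2 and -19.5 points. Of the genes of inflammation and interferon signalling, Tnfrsf1a, a receptor of tumour necrosis factor, had 2 lower tiles with a lowest difference of -27.1 points, and 0 of 33 tiles were higher. Fetal stem cell genes had 3 higher and 1 lower tiles of 26, all at Igf2 and Meg3, which the imprinted list also holds. Near all placed genes 1.72% of tiles were higher and 9.72% lower.

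The change with 10 young cells was set against the change with 10 old cells, each measured against its own untreated group. Over the 99475 tiles with enough reads in all 9 libraries, the median change was -4.90 points for young and -7.08 points for old donors. The same quasi-binomial model with a term for the difference of the changes called 4 tiles (0.00402%), and 5557 tiles (5.59%) had an unadjusted p under 0.05. One of them, at chr19:5757001-5758000, had Ehbp1l1 as its nearest placed start, at -31183 bp (upstream). This tile was at 59.6%, 51.4% and 52.0% after 10 young cells against 16.7% and 16.4% in young HSCs. It was at 43.8% and 53.4% after 10 old cells against 60.7% and 67.0% in old HSCs. The levels after transplantation overlapped between donor ages, and the untreated groups were far apart. The count was 0 when either young library, any old-donor library or any old library was left out.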

How the data were processed

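RRBS libraries of HSC DNA were analysed as deposited: for each CpG the authors' files list methylated and total read counts, joined by a slash, and a deposited score that equals 1000 times the methylated share. The genome build was mm9, as listed per the submitters' processing notes. For alignment, methylation calling and reads that match several places, no tool or setting is named in the labels or file headers. The extraction and library protocols are cited, per the labels' protocols, as published RRBS protocols adapted to small cell numbers. Totals per library were 44427841 to 105187091 reads at CpGs. PCR reads without molecular identifiers are not independent molecules.

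CpGs on the 19 autosomes with 5 or more reads in all 5 libraries were kept. Read counts were summed over 1000-bp tiles with 3 or more CpGs and over promoter windows of 1000 bp on each side of a start. For each, a quasi-binomial logistic regression was used with Williams weights and 1 within-library correlation for all tiles. The dispersion was moderated with a trend on depth (limma 3.58.1 in R 4.3.3) and held at 1 or more, and an F test with Benjamini-Hochberg adjustment followed. Changed means an adjusted p under 0.05 and a difference of 10 points or more. The correlation was estimated from the mean dispersion, the usual form of Williams' method. Forms from the median and from intermediate tiles were also run, and the mean form was kept as the main one after the counts under all 3 had been seen. The model was tested on simulated data. The rest was computed in Python 3.11.15 (pandas 2.3.3, scipy 1.17.1, numpy 2.4.6).

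Gene starts came from RefSeq promoter sequences (GRCm38.p6) placed on mm9 by CpG spacing. Unique placements on the RefSeq chromosome, plus those fitting between placed neighbours, gave 11832 promoters of 10391 genes. Of 10021 unique placements 97.6% fell on the RefSeq chromosome. Of 1955 placements of mirrored sequences, run as a control, 143 did. Exons and introns are not given, since no mm9 annotation was used, and the nearest placed start need not be the nearest gene.

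Named loci are the 10 largest losses and 10 largest gains among changed tiles and the 8 of each among changed windows. Up to 3 genes of each of 15 gene lists were added. At these loci groups did not overlap, every library had 30 or more reads and the unweighted CpG mean moved the same way by 10 points or more. The list windows of Hoxa6, Tex101 and Ddx4 fell short of the last criterion, at 9.72, -8.36 and 9.38 points. Other loci, the 4 genes of the CpG profiles and both stretches of dense tiles were chosen after their values were seen. The members and the gene lists were chosen with earlier results of these data known. Alternatives covered depth minimum, model, samples in the fit, tile size, correlation and left-out libraries.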

Additional observations from a re-analysis of the deposited data

Results flagged for a closer look

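The change after transplantation of 10 cells differed between young and old donors at 4 tiles, by the test of the difference itself in the quasi-binomial model (4 of 99475 tiles, adjusted p from 0.0321 to 0.049). At each, the untreated young and old libraries were further apart than the libraries after transplantation.

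At chr15:49801001-49802000 the difference between the changes was 81.0 points. The 3 libraries from 10 young cells were at 80.4%, 72.6% and 85.4% against 8.94% and 11.3% in young HSCs, and those from 10 old cells at 90.0% and 80.8% against 95.1% and 98.8% in old HSCs. Reads per library ran from 48 to 8314. For young donors the change was 69.4 points, or 42.1 points by the unweighted mean of CpGs, and the tile was no longer tested in the 5 libraries once CpGs with over 500 reads were left out or 10 or more reads per CpG were required.

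At chr17:64051001-64052000 the difference was 67.0 points, with 22.1%, 37.0% and 31.6% against 10.1% and 5.97% for young donors and 24.5% and 28.0% against 69.2% and 73.0% for old donors. At chr19:5757001-5758000, the tile upstream of Ehbp1l1, it was 53.0 points, from the values given above. At chr2:33616001-33617000 it was -69.8 points, with 44.0%, 72.3% and 61.5% against 76.1% and 73.3% for young donors and 69.9% and 59.3% against 6.27% and 14.2% for old donors. The last tile had 27 to 315 reads per library.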

How the results depend on the processing

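The direction of the mean level did not change under any alternative run: the difference was -5.36 points with 10 or more reads per CpG, -5.77 with chromosome X added, and between -6.72 and -5.15 with 1 library left out. None of the 41 named tiles and promoters changed sign in the alternatives in which it was recomputed. Of the 41, 16 stayed past the threshold with limma, all of them promoter windows, 37 without transplanted replicate 1, 12 without replicate 2, 17 without replicate 3 and 0 without either young library, a fit in which the lone young library is assumed to vary like the others. Counts of called tiles did depend on the processing. With 10 or more reads per CpG, 1584 tiles were called (1413 lost, 171 gained), of which 174 and 49 lay within 10 kb of a placed start, where the main fit had 6 and 2. limma on unweighted means called 2 tiles (2 lost, 0 gained), with 31508 at an unadjusted p under 0.05, and 0 of the 28 main calls were among them. Leaving out CpGs with over 500 reads gave 27 tiles, all among the 28. A fit with 15 libraries called 17349 (16297 lost, 1052 gained, with 1516 and 262 near starts). The quasi-binomial fit on 300-bp tiles called 0 (0 lost, 0 gained), with 25142 at an unadjusted p under 0.05.

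Alternatives added after the data were seen gave 9412 tiles (8716 lost, 696 gained, with 856 and 183 near starts) with the median form of the correlation, 15540 (14451 lost, 1089 gained) without the lower limit of the dispersion, and 0 (0 lost, 0 gained; 24434 at an unadjusted p under 0.05) with the correlation from intermediate tiles. Leaving out 1 library gave 0 to 4208 called tiles, 0 to 3832 lost and 0 to 376 gained, with 5983 to 31112 at an unadjusted p under 0.05. The cause of these changes was not tested.

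The count of changed promoter windows went from 111 to 199 (126 lost) with the median form and to 0 (0 lost, 0 gained) with the correlation from intermediate tiles, where 312 had an unadjusted p under 0.05. The fit with 15 libraries had 105 lost windows. Leaving out 1 library gave 0 to 99 windows, 0 to 49 lost and 0 to 50 gained. Without transplanted replicate 1 the count was 67 and without replicate 2 it was 56.

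The replicate numbers are shared by transplanted and young libraries, but nothing in the labels ties equal numbers to a shared batch. Deviations of equally numbered libraries from their group means correlated at -0.0073 for number 1 and 0.045 for number 2, so the numbers were not taken to pair the libraries. A fit with a replicate block called 8506 tiles (7808 lost, 698 gained) and 264 windows (180 lost, 84 gained).

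The difference between donor ages was called at 4 tiles, at 0 by limma (7452 at an unadjusted p under 0.05), at 7 with the median form of the correlation, and at 0 to 10 with 1 of the 9 libraries left out. With 3 and 2 libraries, depths of 44427841 to 105187091 reads and most methylated tiles holding 3 to 9 CpGs, a change in 1 sparse tile is measured less firmly than the level of a library.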

Other observations

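A total of 187 tiles with 20 or more CpGs lay between 20% and 80% in fetal HSCs, a range in which imprinted regions fall. Their mean level was 54.0%, 51.8% and 48.8% after transplantation of 10 young cells and 48.6% and 50.0% in young HSCs, and the groups overlapped. Untreated old HSCs had 59.1% in both libraries, and fetal HSCs 44.1% and 45.4%.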
